A study of Mus musculus with 2 samples.

Results

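The 10 genes described here encode receptors and ion channels with which enteroendocrine cells, the hormone-secreting cells of the intestinal epithelium, sense gut contents and stimuli, and proteins that tie such signals to secretion. Trpa1, Piezo2, Scn3a, Cacna1a, Rab3c, Gfra3, Ffar1, Ffar4, Gpr119 and Casr were taken by name, and all 10 were found among the 31053 genes of the count matrix. They were measured by droplet-based 3′ single-cell RNA sequencing, which counts unique molecular identifiers (UMIs), each standing for a captured RNA molecule. The cells came from mouse small intestinal organoids, a cultured form of the gut epithelium. There is a control and a melatonin-treated sample, and per the labels each combines cells of 3 organoid lines. Mouse strain, age and melatonin dose are not given in the sources used here, and the treatment concerned the whole culture.

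The matrix, gene and barcode files of the control and melatonin samples were identical in 3 of 3 comparisons, so both hold 1 matrix. It was treated as 1 sample, and control and melatonin were not compared. Its 21806 barcodes end in the suffix 1 (set 1) or 2 (set 2), and no label ties a suffix to a treatment. Cells were those barcodes that reached 500 genes and 1000 UMIs without exceeding 20% mitochondrial UMIs. There were 2300 in set 1 with 61628537 UMIs and 1766 in set 2 with 51111519 UMIs. Of all barcode sequences, 29 occurred with both suffixes, but 0 were kept in both sets. Cells of a pool are not replicates, so no test was run, and the 95% intervals given (exact Poisson for levels, exact Clopper-Pearson for shares) cover counting error only. For a class with 0 UMIs the limit given is the level that 3 counts would make, in place of an interval. Levels are UMIs summed over a class of cells per 1000000 UMIs of that class (CPM), and they are compared between classes for the same gene, not between genes, because transcript length and 3′ capture differ.

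Cells were sorted into classes by the genes of endocrine identity. The Neurog3 class, named for the transcription factor that starts endocrine differentiation, held 137 cells in set 1 and 81 in set 2. The Tph1 class, defined by the enzyme that makes serotonin in enterochromaffin cells, held 96 and 103. The peptide-hormone class, defined by the summed UMIs of Gcg, Gip, Cck, Sst, Nts, Pyy and Ghrl, held 60 and 116, and in most of these cells Cck (46 and 91) or Gip (12 and 17) was the leading hormone. No cell passed both the Tph1 and the hormone gate. A further 86 and 19 cells carried the granins Chga and Chgb without passing these gates and are called other endocrine cells. The classes together made 379 enteroendocrine cells in set 1 (16.5% of kept cells) and 319 in set 2 (18.1%), against 1921 and 1447 other cells. Median depth was 13750 and 14921 UMIs in enteroendocrine cells and 32837 and 32270 in other cells.

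Of 9 pan-endocrine markers, Chga and Chgb are gate genes, so their levels are set by the classes' definition. The 7 others, among them Neurod1, Insm1 and Pcsk1, summed to 1959 CPM in enteroendocrine cells of set 1 and 2077 CPM in set 2, against 5.24 and 3.48 CPM in other cells. Of the 4 immune markers, Ptprc and Cd3e were at 0 in enteroendocrine cells of both sets, and the list summed to 2.46 and 1.36 CPM against 0.284 and 0.392 CPM in other cells. That sum was nearly all Cd74, at 2.28 and 1.36 CPM, which had 8 of its 12 enteroendocrine UMIs of set 1 and 7 of 7 of set 2 in the peptide-hormone class (7.47 and 3.34 CPM) and was at 0 in the Tph1 class. The 5 neuronal markers summed to 21.4 and 15.7 CPM against 2.15 and 2.13 CPM, with Elavl3 (9.48 and 6.79 CPM) the highest. Goblet markers summed to 1819 and 1305 CPM in enteroendocrine cells and to 205 and 638 CPM in other cells. That sum came mainly from Tff3 (1616 and 1181 against 164 and 530 CPM) and Fcgbp (199 and 122 against 39.1 and 68.3 CPM). In set 2 the other members were below their level in other cells, Muc2 at 1.16 against 11.5 CPM, Zg16 at 1.36 against 27.2 CPM and Clca1 at 0 against 0.936 CPM. Tuft markers summed to 9.29 and 4.66 CPM against 4.53 and 0.979 CPM. That sum came mainly from Alox5ap (4.55 and 2.33 against 0.444 and 0.0870 CPM) and Dclk1 (3.22 and 0.970 against 0.674 and 0.218 CPM). In set 1 Pou2f3 (0.379 against 1.03 CPM), Trpm5 (0.190 against 1.07 CPM) and Avil (0.948 against 1.30 CPM) were below their level in other cells. In set 2 Avil was above it (0.970 against 0.348 CPM). Stem markers summed to 94.2 and 94.3 CPM against 313 and 256 CPM, and glia markers to 2.09 and 2.52 CPM against 1.69 and 1.31 CPM. Mesenchyme markers were at 0 and 0.388 CPM against 0.231 and 0.109 CPM. Members of the Paneth and enterocyte lists also went opposite ways. Paneth markers summed to 1152 and 1535 CPM in enteroendocrine and 689 and 1197 CPM in other cells. Lyz1 (358 and 184.8 against 38.5 and 34.5 CPM), Defa24 (377 and 1047 against 41.2 and 315 CPM) and Mmp7 (66.7 and 26.0 against 0.958 and 1.61 CPM) were above their level in other cells, and Itln1 (350 and 277 against 609 and 846 CPM) was below it. Enterocyte markers summed to 677 and 480 CPM against 2204 and 3867 CPM, and 4 of the 5 were below their level in other cells. The exception was Sis, the gene of sucrase-isomaltase, at 525 and 366 CPM against 271 and 282 CPM.

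The goblet, Paneth and enterocyte sums also differed between the mature classes. Goblet markers were at 1490 and 797 CPM in the Tph1 class and 2460 and 1845 CPM in the peptide-hormone class, with Tff3 at 1422 and 770 against 2279 and 1689 CPM and Fcgbp at 65.7 and 24.3 against 181 and 154 CPM. Paneth markers were at 545 and 339 CPM in the Tph1 class and 1258 and 2454 CPM in the peptide-hormone class. Defa24 (170 and 130 against 469 and 1820 CPM), Lyz1 (145 and 20.6 against 348 and 343 CPM) and Itln1 (69.3 and 130 against 438 and 289 CPM) had that direction, and Mmp7 the opposite one (161 and 58.7 against 3.73 and 2.86 CPM). Enterocyte markers were at 314 and 221 CPM in the Tph1 class and 1001 and 741 CPM in the peptide-hormone class. Sis had that direction (167 and 61.1 against 865 and 660 CPM), and Apoa1 (45 and 56.2 against 7.47 and 8.59 CPM) and Apoa4 (26.6 and 28.7 against 23.3 and 16.7 CPM) the opposite one. Fabp1 was at 71.6 and 74.3 CPM against 105 and 54.4 CPM, and Alpi had at most 5 UMIs in either class. Stem markers went the other way, at 71.6 and 120 CPM in the Tph1 class and 54.1 and 61.6 CPM in the peptide-hormone class. Smoc2 had that direction (59.0 and 108 against 35.5 and 47.2 CPM), and Lgr5 the opposite one (7.38 and 9.98 against 12.1 and 14.3 CPM). The tuft marker Alox5ap was at 10.3 and 6.24 CPM in the Tph1 class and at 0 in the peptide-hormone class. The part of these transcripts in the results below was not tested.

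Enteroendocrine cells are sensors of the gut lining. Fatty acid and lipid receptors and the calcium-sensing receptor respond to nutrients and raise the release of peptide hormones. Enterochromaffin cells react to irritants through Trpa1 and to touch through Piezo2, fire action potentials through sodium channels and release serotonin when calcium enters through voltage-gated calcium channels.

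Seen over all enteroendocrine cells, 8 of the 10 genes were higher than in other cells, in both sets. A gene was counted as higher or lower when its ratio was at least 2-fold on CPM plus 1, the intervals did not overlap and the compared cells held at least 10 UMIs of it. Genes that reached this UMI minimum are called tested, which means no statistical test. Of all genes in this comparison, 27.5% in set 1 and 25% in set 2 were higher by that rule. The log2 ratios of the 8 genes ran from 1.40 (Ffar4) to 8.13 (Rab3c) in set 1 and from 2.27 (Ffar4) to 8.12 (Rab3c) in set 2. Their median was 6.22 in set 1, where that of all tested genes was 0.38. In set 2 it was 6.14, or 6.89 with Gpr119, which had 0 UMIs in other cells, set to its bound, against 0.31 for all tested genes. The 2 genes not tested, Piezo2 and Casr, had under 10 UMIs in the kept cells.

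**Figure D1:**
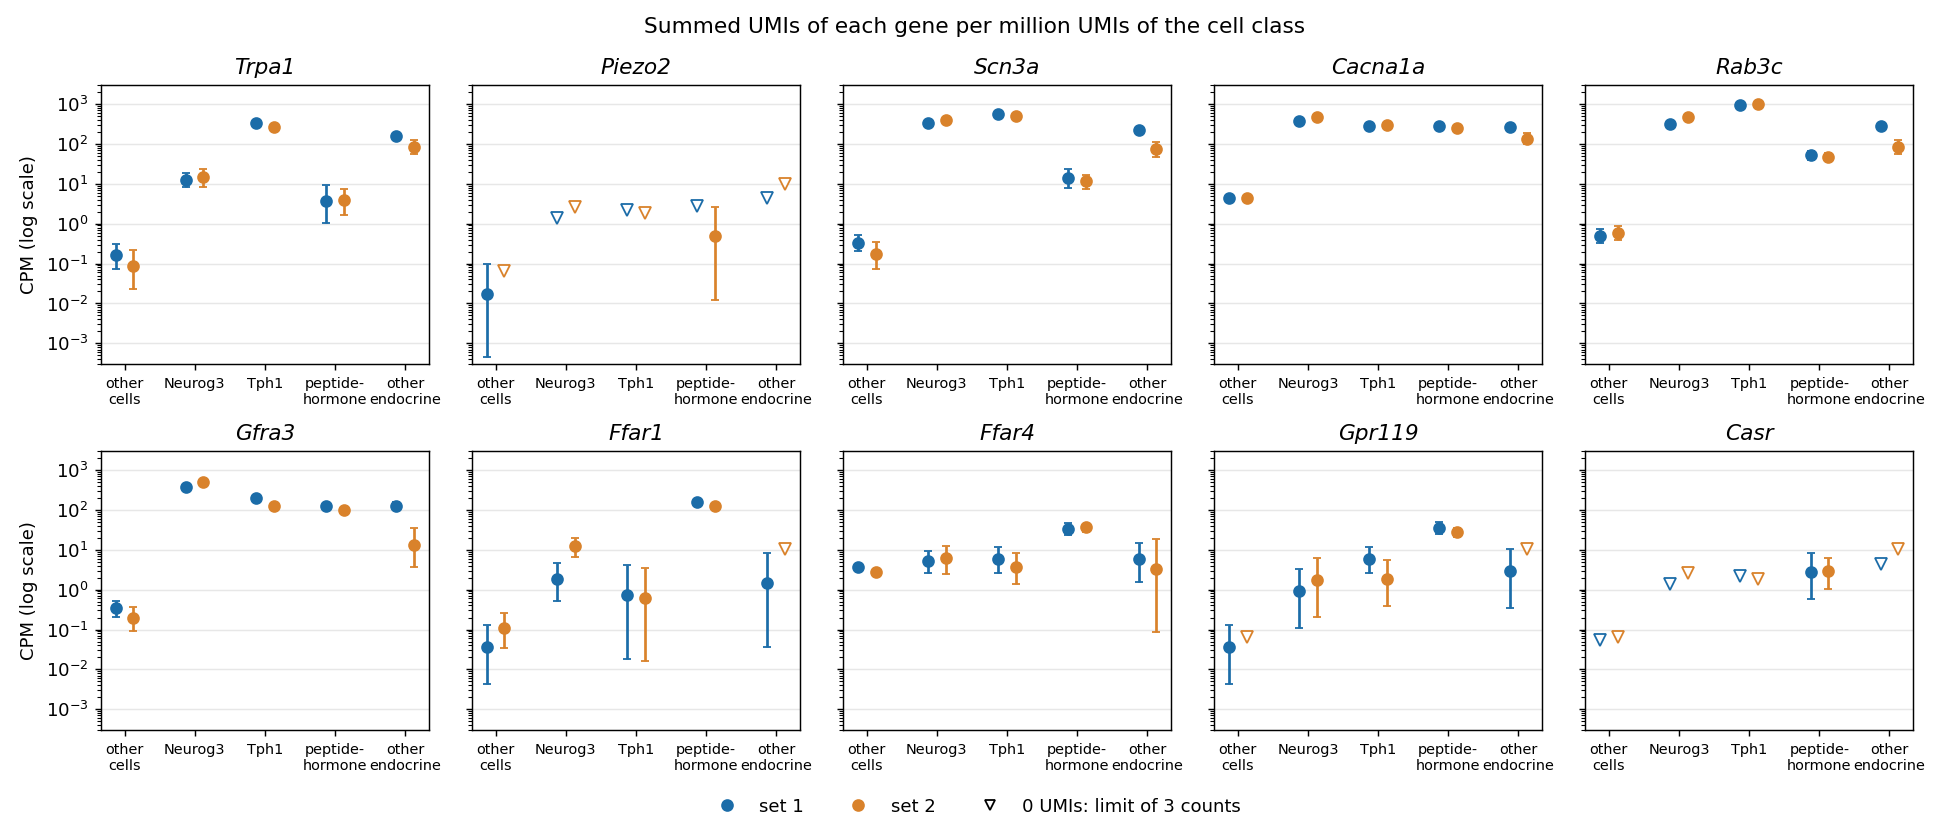
Level of each of the 10 genes in CPM on a log axis, in 5 classes of cells of set 1 (blue) and set 2 (orange). Circles are CPM of summed UMIs with exact Poisson 95% intervals, and open triangles mark classes with 0 UMIs at the limit of 3 counts. Trpa1, Scn3a and Rab3c stand highest in the Tph1 class, Ffar1, Ffar4 and Gpr119 in the peptide-hormone class, and Cacna1a differs little between the Tph1 and peptide-hormone classes.

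Trpa1 (ENSMUSG00000032769), the cation channel that detects electrophilic irritants, was a gene of the Tph1 class. It reached 325 CPM (295 to 356) in the cells of set 1 and 264 CPM (239 to 290) in those of set 2. In the peptide-hormone class it was at 3.73 and 3.82 CPM, in the Neurog3 class at 12.5 and 14.6 CPM, and in other cells at 0.160 and 0.0870 CPM. The other endocrine cells, many of them shallow, came nearest, at 155 CPM (127 to 187) and 84.4 CPM (54.6 to 125), and the interval of the Tph1 class was above that of every other class in both sets. Of the Trpa1 UMIs in kept cells, 863 of 1064 lay in the Tph1 class. The ratio of the Tph1 to the peptide-hormone class was 87.0-fold in set 1 (33.7 to 321) and 69.2-fold in set 2 (34.8 to 161). The set 1 ratio rests on 4 UMIs in the peptide-hormone class, and its log2 value went from 6.10 to 8.22 when the 3 highest cells of each class were left out.

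Within the Tph1 class, 67 of 96 cells in set 1 (69.8%, 59.6% to 78.8%) and 70 of 103 in set 2 (68.0%, 58.0% to 76.8%) had a Trpa1 UMI, at median depths of 14158 and 14124 UMIs. In the other cells, which were deeper, 0.469% and 0.276% had one. Thinned to 5000 UMIs per cell, the expected shares in the Tph1 class were 64.1% and 54.4%, against 0.0740% and 0.0716% in other cells. The median Tph1-class cell had 2.83 and 1.68 Trpa1 UMIs per 10000, and the highest cells had 11.3 and 12.9 per 10000. The 3 cells with most Trpa1 UMIs held 11.8% and 15.1% of the class's count, so most of the level came from the rest.

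Piezo2 (ENSMUSG00000041482), the mechanically gated channel of touch sensing, could not be followed. It had 2 UMIs in all kept cells, 1 in a peptide-hormone cell of set 2 and 1 in an other cell of set 1, and 6 UMIs in the whole matrix. It had 0 UMIs in the Tph1 class, where the limit of 3 counts is 2.21 CPM for set 1 and 1.87 CPM for set 2, and lower levels were not detectable at this depth.

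Scn3a (ENSMUSG00000057182) encodes the pore-forming subunit of a voltage-gated sodium channel that carries action potentials in excitable cells. It was at 558 CPM (519 to 600) and 505 CPM (471 to 541) in the Tph1 class and at 14 and 11.5 CPM in the peptide-hormone class. The Neurog3 class lay between them, at 332 and 389 CPM, but its cells that passed no second gate had 87.7 and 24.6 CPM. Scn3a was found in 91 of 96 and 100 of 103 Tph1-class cells, and in 9 of 60 and 17 of 116 peptide-hormone cells. The ratio of the Tph1 to the peptide-hormone class was 39.9-fold (24.0 to 71.6) in set 1 and 44.1-fold (29.4 to 69.2) in set 2.

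Rab3c (ENSMUSG00000021700), a small GTPase of secretory vesicles, was also highest in the Tph1 class. It was at 938 CPM (887 to 991) and 1006 CPM (958 to 1057) in the Tph1 class, 316 and 458 CPM in the Neurog3 class and 51.3 and 47.7 CPM in the peptide-hormone class. The middle place of the Neurog3 class rested on cells that also passed the Tph1 gate, which held 652 of its 681 Rab3c UMIs in set 1 and 517 of 532 in set 2. Neurog3 cells without a second gate were at 19.5 CPM (11.6 to 30.8) and 42.1 CPM (21.8 to 73.5), below the peptide-hormone class in set 1 (38.7 to 66.8) and overlapping it in set 2 (38.8 to 58.0). Its ratio of the Tph1 to the peptide-hormone class was 18.3-fold (13.9 to 24.4) and 21.1-fold (17.2 to 26.1), and 46.7% and 50% of peptide-hormone cells still had a Rab3c UMI.

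Trpa1, Scn3a and Rab3c were found in the same cells. Over both sets, 137 of 199 Tph1-class cells had Trpa1, and 136 of these also had Scn3a and 136 had Rab3c. Of the 62 cells without Trpa1, 88.7% had Scn3a and 75.8% had Rab3c, but these cells were shallower, with a median of 11966 UMIs against 15142. Gfra3 was present in 72.3% of the cells with Trpa1 and in 69.4% of those without.

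Cacna1a and Gfra3 differed little between the mature classes. Cacna1a (ENSMUSG00000034656) encodes the pore of the P/Q-type calcium channel that triggers vesicle release. It was at 278 and 299 CPM in the Tph1 class and at 282 and 254 CPM in the peptide-hormone class, so the ratio was 0.987 (0.846 to 1.15) in set 1 and 1.18 (1.04 to 1.33) in set 2. It was found in 82.1% and 93.7% of enteroendocrine cells, or 77.2% and 75.5% at 5000 UMIs per cell. Gfra3 (ENSMUSG00000024366), the receptor for the GDNF-family ligand artemin, was at 196 CPM (173 to 221) and 127 CPM (110 to 146) in the Tph1 class and at 124 CPM (104 to 147) and 98.3 CPM (85.3 to 113) in the peptide-hormone class. Its ratio of 1.58 (1.28 to 1.96) and 1.30 (1.06 to 1.58) did not reach 2-fold. It did so, with log2 ratios of 1.15 and 1.30, when cells passing both the Neurog3 and the Tph1 gate were counted with the Tph1 class.

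**Figure D2:**
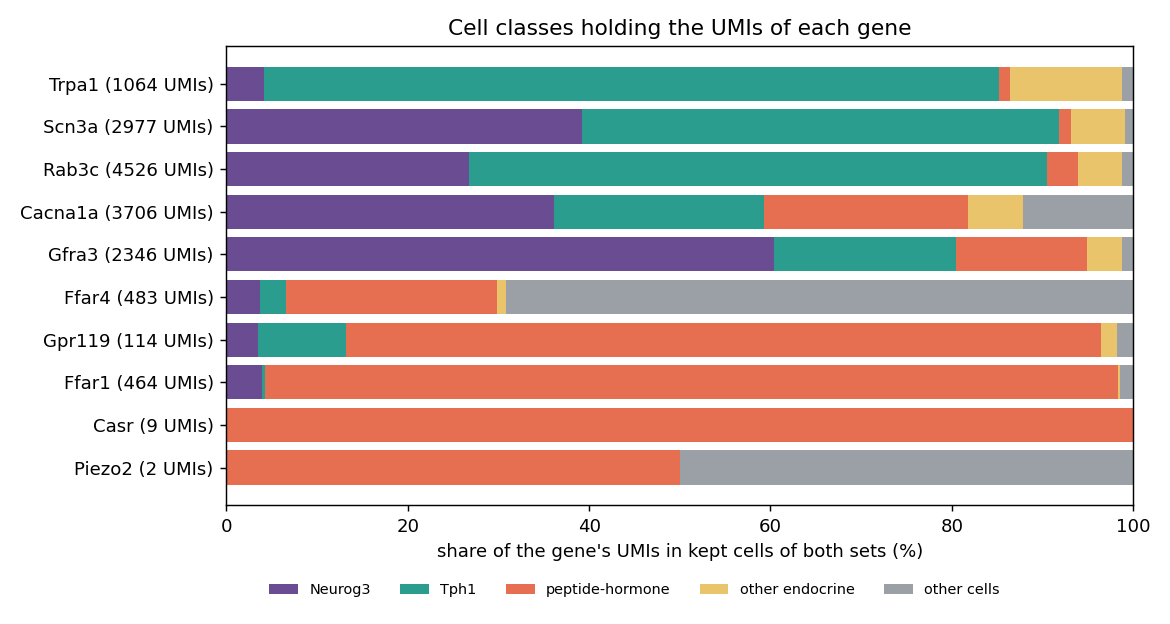
Share of each gene's UMIs in kept cells of both sets that lay in each class, in percent, with the number of UMIs beside the gene. The Tph1 class holds most UMIs of Trpa1, Scn3a and Rab3c, the Neurog3 class most of Gfra3, the peptide-hormone class most of Ffar1, Gpr119 and Casr, and the other cells most of Ffar4. Bars of Casr and Piezo2 rest on 9 and 2 UMIs.

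The lipid receptors made the opposite group. Ffar1 (ENSMUSG00000044453) is a receptor for long-chain fatty acids and Ffar4 (ENSMUSG00000054200) a further one that also responds to omega-type fatty acids. Gpr119 (ENSMUSG00000051209) is the receptor for oleoylethanolamide and monoacylglycerols. Between the Tph1 and the peptide-hormone class, 3 of the 8 tested genes were higher in the former (Trpa1, Scn3a and Rab3c) and 3 were lower (Ffar1, Ffar4 and Gpr119), in both sets. Of all genes tested, 12.2% in set 1 and 12% in set 2 passed in either direction, 8.45% and 8.24% higher and 3.76% and 3.73% lower. The lipid receptors and Rab3c are shown by 150 bases that begin 250 bases before the RefSeq start of each gene, a stretch without annotated exons, because these 4 genes divide between the classes. The promoter table holds 5 of the 10 genes. The build is GRCm38.p6, the sequences are RefSeq's, read 5′ to 3′ on the strand of the gene, and capitals mark the E-box CAGCTG.

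Ffar1, chr7:30861571-30861720, minus strand: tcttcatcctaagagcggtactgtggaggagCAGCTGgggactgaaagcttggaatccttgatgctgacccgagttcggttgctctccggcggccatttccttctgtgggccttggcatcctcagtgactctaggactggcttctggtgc

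Ffar4, chr19:38096829-38096978, plus strand: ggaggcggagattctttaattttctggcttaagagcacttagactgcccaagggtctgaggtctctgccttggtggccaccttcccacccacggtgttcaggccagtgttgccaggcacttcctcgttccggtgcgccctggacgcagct

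Gpr119, chrX:48674579-48674728, minus strand: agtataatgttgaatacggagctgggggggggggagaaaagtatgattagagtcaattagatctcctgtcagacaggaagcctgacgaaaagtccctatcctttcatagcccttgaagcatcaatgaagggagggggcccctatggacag

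Rab3c, chr13:110280307-110280456, minus strand: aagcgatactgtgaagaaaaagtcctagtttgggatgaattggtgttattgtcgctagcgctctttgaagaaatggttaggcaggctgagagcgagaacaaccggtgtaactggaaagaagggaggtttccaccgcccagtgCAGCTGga

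Both strands were searched for 3 words, and no match overlapped another. The E-boxes CAGATG and, reading the same on both strands, CAGCTG are the kind of site that bHLH factors such as Neurog3 and Neurod1 bind. The homeodomain core TAATTA was the other word. CAGCTG occurred in Ffar1, starting 219 bases before the start, and in Rab3c, 108 bases before it, and in the windows of Ffar4 and Gpr119 none of the 3 was found. Among 32851 promoter windows of the same length, 7.52% held the word CAGCTG, 9.04% held CAGATG on either strand and 3.25% held the homeodomain core. Ffar1 and Rab3c thus share this word although their classes differ. A match describes the letters and not a bound site.

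Ffar1 in the peptide-hormone class was at 158 CPM (135 to 183) in the first set and 127 CPM (113 to 144) in the second. In the Tph1 class it had 1 UMI in each set, or 0.738 and 0.624 CPM, which gives a ratio of 214-fold (37.9 to 8493) and 204-fold (36.3 to 8094). It was found in 40 of 60 (66.7%) and 80 of 116 (69.0%) peptide-hormone cells, with median depths of 18247 and 18964 UMIs, and in 0.104% and 0.346% of other cells. At 5000 UMIs per cell the shares were 48.0% and 41.5% in the peptide-hormone class, against 0.0235% and 0.0605% in other cells.

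Ffar4 was at 33.6 CPM (23.5 to 46.5) and 36.3 CPM (28.6 to 45.4) in the peptide-hormone class, and at 5.90 and 3.74 CPM in the Tph1 class. The ratio was 5.69-fold (2.60 to 14.2) and 9.69-fold (4.25 to 27.2). Its level in the Tph1 class overlapped that of the other cells, 3.62 and 2.83 CPM, in both sets. Gpr119 was at 35.5 CPM (25.1 to 48.7) and 27.2 CPM (20.6 to 35.2) in the peptide-hormone class and at 5.90 and 1.87 CPM in the Tph1 class, a ratio of 6.01-fold (2.76 to 14.9) and 14.5-fold (4.73 to 72.5).

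Casr (ENSMUSG00000051980), the calcium-sensing receptor that also responds to amino acids, had 9 UMIs in the matrix, 3 in set 1 and 6 in set 2, each in a different cell. All 9 lay in peptide-hormone cells with Cck as leading hormone, where the level was 3.65 CPM (0.753 to 10.7) and 3.53 CPM (1.30 to 7.69). With 0 UMIs, the limit was 2.21 and 1.87 CPM in the Tph1 class and 0.0532 and 0.0653 CPM in other cells. In cells led by Gip the limit was 15.88 and 11.75 CPM, so a level equal to that of Cck-led cells could not be seen there.

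Most peptide-hormone cells had a UMI of at least 1 of Ffar1, Ffar4 and Gpr119: 49 of 60 (81.7%) in set 1 and 96 of 116 (82.8%) in set 2. In the Tph1 class the shares were 14.6% and 9.71%, and in other cells, at greater depth, 9.21% and 7.95%. All 3 receptors were found together in 11 and 15 peptide-hormone cells and in no cell of any other class. Over the peptide-hormone cells of both sets, 56 of 120 with Ffar1 also had Ffar4, 42 had Gpr119, and 34 of 57 with Gpr119 had Ffar4. Ffar4 was found in 59.6% of peptide-hormone cells with Gpr119 and in 33.6% of those without. Cells with Gpr119 were deeper, at a median of 20843 UMIs against 17934, and the part of depth in this was not tested.

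**Figure D3:**
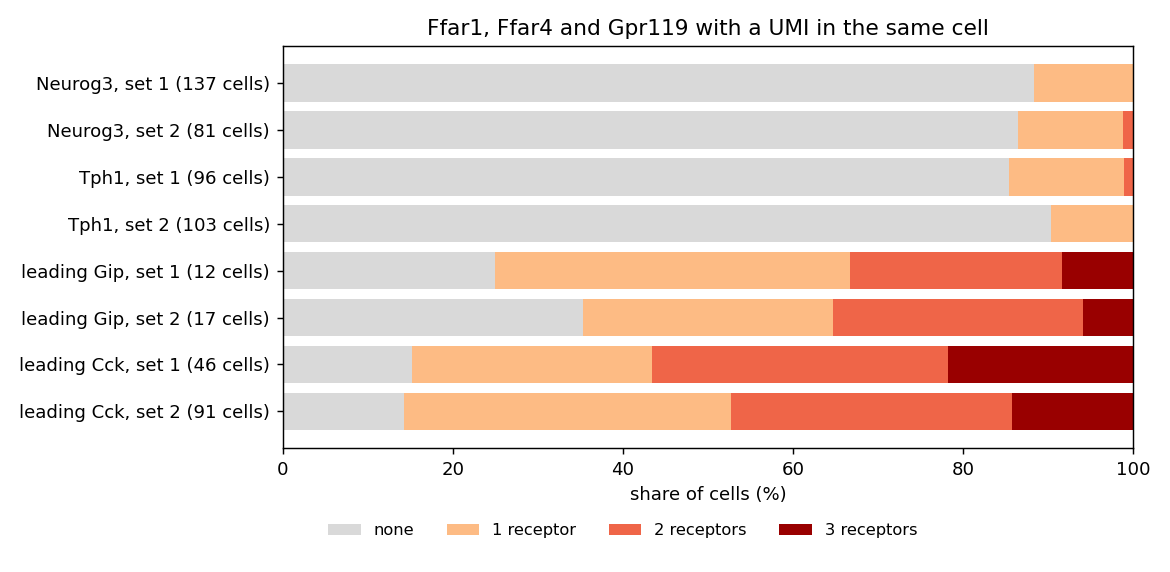
Share of cells, in percent, in which 0, 1, 2 or 3 of the receptors Ffar1, Ffar4 and Gpr119 had a UMI, for the Neurog3 and Tph1 classes and for peptide-hormone cells led by Gip or Cck, by set, with the number of cells. Cells led by Cck or Gip mostly have at least 1 receptor, and cells of the Neurog3 and Tph1 classes mostly none. The shares were not thinned to a common depth.

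Among peptide-hormone cells, Ffar1 was higher in those led by Cck than in those led by Gip. Cck marks the I-type cells of the upper intestine and Gip the K-type cells. Ffar1 was at 188 CPM (159 to 220) and 137 CPM (120 to 156) in cells led by Cck and at 42.3 CPM (18.3 to 83.4) and 62.7 CPM (35.8 to 102) in cells led by Gip. The ratio of Cck-led to Gip-led cells was 4.43-fold (2.19 to 10.4) in set 1 and 2.19-fold (1.32 to 3.89) in set 2. Rab3c went the same way, at 63.3 and 51.2 CPM against 10.6 and 11.8 CPM, the latter from 2 and 3 UMIs. These were 2 of 7 genes tested, both lower in Gip-led cells, where 2.49% and 1.37% of all genes tested were lower.

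Ffar4 and Gpr119 had overlapping intervals between Cck-led and Gip-led cells in both sets. Ffar4 was at 32.9 and 36.5 CPM in Cck-led and 47.6 and 35.3 CPM in Gip-led cells, and Gpr119 at 41.4 and 25.3 CPM against 21.2 and 47.0 CPM. These rest on 12 and 17 Gip-led cells. The 1 and 4 cells led by Gcg, the gene of glucagon-like peptides, had 7 and 17 Ffar1 UMIs, and all 5 were positive.

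Cells of the Neurog3 class divided by a second gate. Of the 137 and 81 cells, 53 and 17 passed neither the Tph1 nor the hormone gate, 78 and 58 also passed the Tph1 gate, and 6 and 6 also passed the hormone gate. From Neurog3 cells without a second gate to cells with both Neurog3 and Tph1 and on to the Tph1 class, 5 genes are given in turn. These groups are not a measured time course.

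Trpa1 had 0 UMIs in Neurog3 cells without a second gate, with limits of 3.25 and 10.5 CPM. It was at 23.8 CPM (15.7 to 34.6) and 21.6 CPM (12.6 to 34.6) in cells with Neurog3 and Tph1, and at 325 and 264 CPM in the Tph1 class. The 27 and 17 UMIs of the middle group came from 11 and 8 cells, and the 3 highest cells held 63.0% and 70.6% of them.

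In cells with both genes Scn3a was already at its Tph1-class level, and Rab3c was below it. Scn3a went from 87.7 and 24.6 CPM to 557 and 545 CPM, beside 558 and 505 CPM in the Tph1 class. It was found in 78 of 78 and 55 of 58 cells of the middle group. Rab3c went from 19.5 and 42.1 CPM to 574 CPM (531 to 620) and 657 CPM (601 to 716), which were 0.612 and 0.653 times its Tph1-class level, with intervals apart.

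Gfra3 was highest in the middle group. It was at 208 CPM (180 to 240) and 112 CPM (76.8 to 159) without a second gate, 517 CPM (476 to 560) and 642 CPM (587 to 700) with Neurog3 and Tph1, and 196 and 127 CPM in the Tph1 class. Cacna1a was at 301 and 351 CPM, 431 and 490 CPM, and 278 and 299 CPM in the same order.

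**Figure D4:**
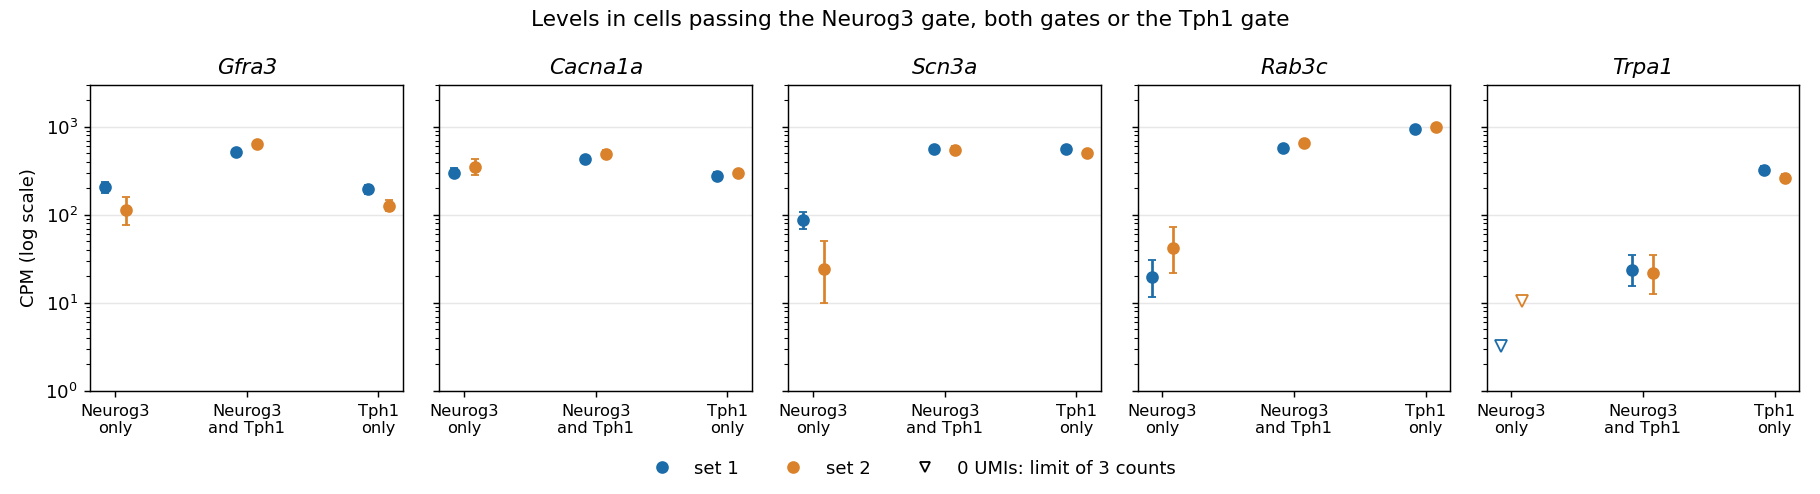
Level in CPM (log axis) of 5 genes in cells of the Neurog3 class that pass no other gate, in cells that pass the Neurog3 and the Tph1 gate, and in the Tph1 class, for set 1 (blue) and set 2 (orange), with exact Poisson 95% intervals. Trpa1 is lowest in the first group, with 0 UMIs, and highest in the last, Scn3a is level between the last 2 groups, and Gfra3 peaks in the middle group.

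Set against the Tph1 class, cells with both Neurog3 and Tph1 had Gfra3 higher, by 2.63-fold (2.28 to 3.06) in set 1 and 5.04-fold (4.28 to 5.96) in set 2, and Trpa1 lower, with log2 ratios of -3.72 and -3.55. No other member passed, of 7 tested in set 1 and 6 in set 2. Of all genes tested, 2.45% and 2.4% were higher and 2.53% and 2.35% were lower. The larger set 2 ratio of Gfra3 had both a higher level in cells with Neurog3 and Tph1 (642 against 517 CPM) and a lower one in the Tph1 class (127 against 196 CPM). Set against the Tph1 and peptide-hormone classes together, the whole Neurog3 class had Gfra3 higher (log2 1.22 and 2.19) and Trpa1, Ffar1, Ffar4 and Gpr119 lower, 5 of 8 genes in both sets. That reference pools classes with opposite levels, in a mix that differs by set. Ffar1, at 1.86 and 12.1 CPM in the Neurog3 class, was not below the Tph1 class (0.738 and 0.624 CPM). Ffar4, at 5.10 and 6.03 CPM, was near it (5.90 and 3.74 CPM), and Gpr119, at 0.928 and 1.72 CPM, overlapped it (5.90 and 1.87 CPM). Trpa1, at 12.5 and 14.6 CPM, was not below the peptide-hormone class (3.73 and 3.82 CPM). Markers of other cell types differed in this comparison too, and their part was not tested. In the Neurog3 class goblet markers summed to 1937 and 1293 CPM, Paneth markers to 1451 and 1822 CPM and enterocyte markers to 712 and 428 CPM, each sum between those of the Tph1 and peptide-hormone classes but for Paneth markers in set 1, which were above both. Among the markers above both classes were Fcgbp, at 324 and 228 CPM, in both sets, Lyz1, at 526 CPM, in set 1 and Itln1, at 447 CPM, in set 2. The stem marker Lgr5, at 26.9 and 18.95 CPM, was above both classes in both sets. Stem markers summed to 114 and 76.7 CPM, above both classes in set 1 and between them in set 2. Of all genes tested, 3.68% and 3.63% were higher and 3.82% and 2.68% were lower. Which genes passed changed when only Neurog3 cells without a second gate made up that class and the others were counted with the class of their second gate. Gfra3 then turned, to -0.44 and -0.91, and Scn3a (-2.12 and -3.45) and Rab3c (-4.73 and -3.50) passed as lower, while Ffar4 in set 1 and Gpr119 in set 2 no longer passed.

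The other endocrine cells of set 1 were shallow. Their median depth was 1806 UMIs, and 51 of 86 had under 5000 UMIs. The 35 deeper cells carried Trpa1 (172 CPM), Scn3a (248 CPM) and Rab3c (312 CPM) and 1 UMI of Ffar1. In set 2 all 25 Trpa1 UMIs of this class came from 1 cell. Cells just below the Tph1 gate, with 2.5 to 5 Tph1 UMIs per 10000, numbered 23 over both sets and had Trpa1 at 312 CPM (259 to 374), beside 300 CPM (260 to 344) in the 47 cells just above it. Rab3c was at 440 CPM (375 to 512) below the gate and 875 CPM (807 to 949) above it, with intervals apart. Ffar1 was at 31.8 CPM (16.4 to 55.5) below the gate, from 12 UMIs, and had 0 UMIs above it, with a limit of 4.41 CPM. The other endocrine class held 1 Ffar1 UMI over both sets, so the cells below the gate also included cells of other classes. The part of this class mix in the differences across the gate was not tested. The intervals of Scn3a, Gfra3 and Cacna1a overlapped.

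Outside the enteroendocrine classes the genes divided again. For Trpa1, Scn3a, Gfra3, Rab3c, Ffar1 and Gpr119, the level in other cells, pooled over both sets, was 0.0933% to 0.182% of that in enteroendocrine cells. By set the values were between 0.0687% (Scn3a) and 0.374% (Gpr119, from 2 UMIs), and Gpr119 had 0 UMIs in other cells of set 2. Chgb, an abundant granin of endocrine granules, was at 0.133%, but it is a gate gene, so the gate limits its level in other cells. The source of these UMIs was not tested. For Cacna1a the value was 1.41% and for Ffar4 it was 22.9%.

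**Figure D5:**
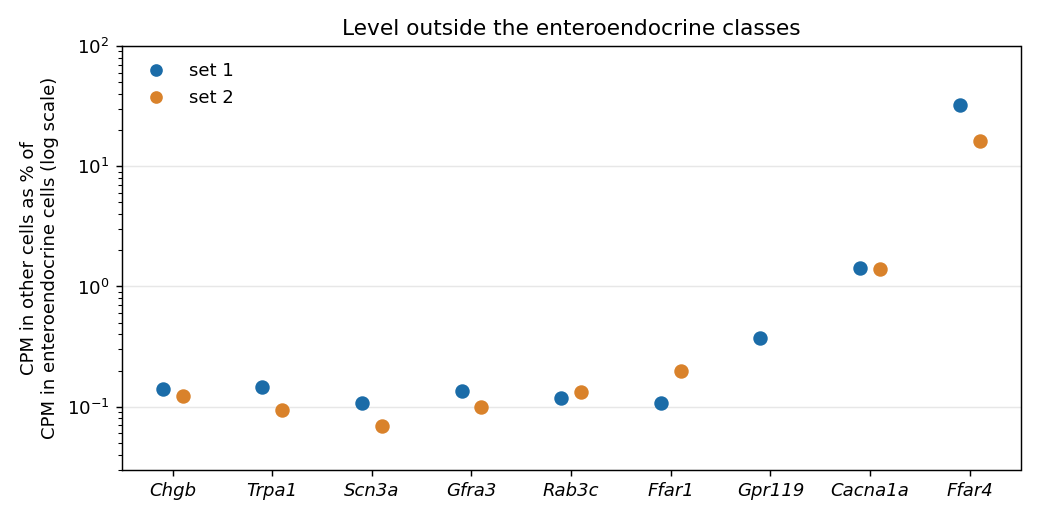
Level in other cells as a percentage of that in enteroendocrine cells (log axis), for Chgb and the 8 genes with at least 10 UMIs, in set 1 (blue) and set 2 (orange). Chgb (0.140% and 0.124%) is a gate gene, and its level in other cells is limited by the gate. Cacna1a (1.41% and 1.39%) and Ffar4 (32.4% and 16.2%) lie above the others, and Gpr119 has no point in set 2 because it had 0 UMIs in other cells.

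Other cells held 334 of the 483 Ffar4 UMIs, and enteroendocrine cells 22.4% of them in set 1 and 40.9% in set 2. Its ratio of enteroendocrine to other cells was 3.09-fold (2.27 to 4.15) and 6.17-fold (4.66 to 8.14). In set 1 it no longer passed when cells were weighted equally (log2 0.74) or with a pseudocount of 10 CPM (log2 0.64). Among other cells, the 336 with the highest share of enterocyte-marker UMIs (138 in set 1 and 198 in set 2) had 1 Ffar4 UMI in each set, or 0.234 and 0.145 CPM, against 3.90 CPM (3.38 to 4.47) and 3.30 CPM (2.76 to 3.92) in the rest. The 336 with the highest share of goblet markers (219 and 117) had 8.53 CPM (5.34 to 12.9) and 5.20 CPM (2.97 to 8.44), against 3.39 and 2.66 CPM. Their median depth was 3805 UMIs in set 1, against 34338 in the rest, and 23261 in set 2, against 32780.5. The part of depth in this was not tested. For stem markers (227 and 109 cells) the values were 6.11 and 4.51 CPM, against 3.37 and 2.74 CPM. The intervals were apart in both sets for enterocyte markers, and in set 1 alone for goblet and stem markers.

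Cacna1a was at 4.47 and 4.29 CPM in other cells, 70.8-fold (62.0 to 81.2) and 71.8-fold (61.9 to 83.7) under its level in enteroendocrine cells. The 219 other cells of set 1 with most goblet markers had 16.7 CPM (12.1 to 22.5), beside 3.89 CPM in the rest, at a median depth of 3805 UMIs. The 117 such cells of set 2 had 4.22 CPM, beside 4.29 CPM, at a median of 23261 UMIs. The split by pan-endocrine markers, a list that holds the gate genes Chga and Chgb, was apart in both sets. The other cells with most of them had Cacna1a at 9.19 CPM (5.62 to 14.2) and 9.90 CPM (5.12 to 17.3), beside 4.28 CPM (3.75 to 4.87) and 4.14 CPM (3.56 to 4.77) in the rest. For tuft markers the values were 7.12 and 3.30 CPM, the latter from 3 UMIs, beside 3.93 and 4.31 CPM, with intervals apart in set 1 alone. For enterocyte markers they were 1.87 and 2.47 CPM beside 4.69 and 4.61 CPM, apart in set 1 and touching in set 2.

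Between the barcode sets, 0 of 8 tested genes passed 2-fold in enteroendocrine cells, where 1.87% of all genes did. At that rate 0 of 8 says little about these genes. The counting interval of the ratio of set 2 to set 1 was above 1 for Ffar1 (1.36 to 2.002) and Ffar4 (1.112 to 2.206). It was below 1 for Trpa1 (0.7399 to 0.9471), Scn3a (0.7552 to 0.8746) and Gfra3 (0.7219 to 0.8523). For Gpr119, Cacna1a and Rab3c it included 1. The log2 ratios ran from -0.35 (Gfra3) to 0.70 (Ffar1). The direction is arbitrary, because no label ties a suffix to a treatment. Set 2 held 116 peptide-hormone cells and set 1 held 60, and the part of this in the difference of Ffar1 was not tested. Within the peptide-hormone class its ratio was 0.808 (0.664 to 0.985). With cells weighted equally the ratio over enteroendocrine cells passed, at log2 1.06.

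Within classes, 0 members passed in the Tph1 class (1.61% of all genes did), the peptide-hormone class (2.11%) or other cells (1.1%). In the Neurog3 class 1 did (1.51% of all genes). That gene was Ffar1, with 4 UMIs in set 1 and 14 in set 2, of which 11 came from 1 cell that also passed the hormone gate. In the Tph1 class of set 2, Trpa1 was 0.813 times (0.710 to 0.931) and Gfra3 0.649 times (0.538 to 0.781) its set 1 level, both under 2-fold. In the Neurog3 class Gfra3 went the other way, at 1.33 times (1.20 to 1.48).

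Related genes were taken from lists of the same families, compared between enteroendocrine and other cells. Counts below are to be read beside the 27.5% and 25% of all genes that were higher in this comparison, and the 8.24% and 10.2% that were lower. A listed gene with 0 UMIs in 1 of the compared groups met the UMI minimum through the other group alone. Of the 10 listed fatty acid and lipid receptors, 6 of 7 tested in set 1 and 6 of 8 in set 2 were higher, with median log2 ratios of 3.34 and 3.1 (3.63 in set 2 with genes at 0 UMIs set to their bound). Besides Ffar1 these included Ffar2, the receptor for short-chain fatty acids, at 144 and 145 CPM against 0.337 and 0.174 CPM, and Cnr1, the cannabinoid receptor, at 14.03 and 30.3 CPM. Ffar2 divided the classes the other way from Ffar1, at 184 and 205 CPM in the Tph1 class and 84.0 and 69.7 CPM in the peptide-hormone class (log2 1.13 and 1.54). Cnr1 was lower in the Tph1 class, as Ffar1 was, at 8.12 and 8.11 CPM against 51.3 and 65.4 CPM. Within the peptide-hormone class it went against Ffar1, at 254 and 349 CPM in Gip-led cells and 8.52 and 28.3 CPM in Cck-led cells, while Ffar2 was lower in Gip-led cells, at 10.6 and 11.8 CPM against 106 and 81.3 CPM.

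Of the 17 listed TRP channels, 4 of 8 and 4 of 9 tested were higher, with medians of 1.27 and 0.71 (1.70 and 1.04 at the bound). Trpm2, a channel opened by oxidative stress, was at 23.1 and 12.8 CPM in enteroendocrine cells and at 0.124 and 0.0218 CPM in other cells. Like Trpa1 it was higher in the Tph1 class, at 63.4 and 32.4 CPM against 2.80 and 3.82 CPM in the peptide-hormone class. Trpc1 was at 28.8 and 37.4 CPM in enteroendocrine cells, and its log2 ratio of -0.87 and -0.57 between these classes did not pass.

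Of the 7 listed mechanosensitive channels 4 were tested, and 1 was higher, a share no larger than that of all genes, and 2 were lower, with medians of -0.70 and -0.59. The higher gene was Tmem63b, at 120 and 109 CPM against 48.0 and 48.6 CPM in other cells. Piezo1, the mechanically gated channel of epithelium and vessels, was lower in enteroendocrine cells, at 0.569 and 1.36 CPM against 3.21 and 4.70 CPM, and so was the potassium channel Kcnk10, at 1.71 and 1.94 CPM against 12.6 and 9.14 CPM. These last 2 genes lie outside the naming rule and were chosen after their values were seen. Of the amino acid, peptide and taste receptors, 9 of them in the matrix, 0 of 2 tested passed, with median log2 ratios of -0.22 and -0.43.

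Of 13 listed voltage-gated sodium channels, 4 of 5 and 3 of 5 tested were higher, and of 14 listed calcium channels 8 of 10 and 8 of 8 tested. The genes not tested had too few UMIs. Medians were 2.24 in both sets for sodium channels (2.86 at the bound in set 1) and 3.87 and 4.51 for calcium channels (4.65 and 5.72 at the bound). Scn8a, a further pore-forming subunit, was at 6.64 and 8.34 CPM, Cacna1h, the pore of a T-type calcium channel, at 95.7 and 81.3 CPM, and the auxiliary subunit Cacna2d1 at 234 and 207 CPM. Of 6 listed GDNF-family receptors 3 of 3 and 2 of 2 tested were higher, with medians of 3.99 (5.15 at the bound) and 5.51. In set 1, 1 of the 3 had 0 UMIs in other cells and met the UMI minimum through enteroendocrine cells alone, so its call carries no weight. Ret, the kinase through which Gfra3 signals, was at 36.8 and 32.8 CPM against 1.38 and 1.65 CPM in other cells. Of 26 listed regulated secretion genes 21 of 23 and 21 of 22 tested were higher, with medians of 4.20 and 4.11 (4.20 at the bound). The vesicle protein Syt13 was at 151 and 197 CPM against 0.408 and 0.261 CPM, and the priming factor Cadps at 95.4 and 93.1 CPM against 0.373 and 0.152 CPM.

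Among 20 listed other receptors 12 of 14 tested were higher in each set, with medians of 2.35 (2.40 at the bound) and 1.86, and 1 and 2 were lower. The galanin receptor Galr1 was at 11.2 and 14.6 CPM in enteroendocrine cells, the somatostatin receptor Sstr5 at 10.1 and 7.76 CPM and the prostaglandin receptor Ptger3 at 31.9 and 11.6 CPM. Galr1 and Sstr5 were lower in the Tph1 than in the peptide-hormone class in both sets. Ptger3 was lower in set 2 (6.86 against 22.4 CPM), while in set 1 it was at 44.3 and 42.9 CPM.

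For each member with at least 50 UMIs in enteroendocrine cells, the genes of most similar pattern were ranked by Pearson correlation of log2 (CPM plus 1) over 10 points, the 5 classes in 2 sets, among 10072 genes. Points of a class in both sets share gates, and how the sets were prepared is not given in the sources used here, so r is a description. Trpa1 was most like Ucn3, the gene of the peptide urocortin 3 (r = 0.990), Rab3c like Slc18a1, the vesicular monoamine transporter that loads serotonin (0.996), and Scn3a like Slc25a35 (0.996). Among the 3 genes most like Gfra3 were Slc29a4, a monoamine transporter (0.995), and Myrf (0.993). Cacna1a was most like Celf3 (0.995), an RNA-binding protein. Ffar1 was most like Nudt11 (0.988), with Scg2, a granin, in the ranks after it (0.978), Ffar4 like the retinol carrier Rbp4 (0.984), and Gpr119 like Arhgef38 (0.973), followed by Cnr1 (0.972). Piezo2 and Casr had too few UMIs to be ranked.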

How the data were processed

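The deposited matrix holds raw counts of UMIs per gene and barcode, whole numbers with no normalization, and its header names software version 3.1.0. The submitters' processing notes name Cell Ranger 3.1.0, bcl2fastq 2.20.0 and STAR 2.7.3a. The genome build and annotation of the counts are not given in the sources used here. The members, gates, gene lists and comparisons were chosen with earlier results of these data known.

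Computed here, in Python 3.11.15 with numpy 2.4.6, scipy 1.17.1 and pandas 2.3.3, were sums per class and CPM, with exact Poisson intervals, and ratios of CPM. A pseudocount of 1 CPM was added before log2, so ratios of low genes are understated. Gates, in order, were at least 2 Neurog3 UMIs and 1 per 10000, 5 Tph1 UMIs per 10000, 50 UMIs of 7 hormone genes per 10000, and 10 UMIs of Chga and Chgb per 10000. Shares of cells were also computed at 5000 UMIs per cell (hypergeometric expectation), which left out 74 and 23 enteroendocrine cells and 311 and 126 other cells with fewer UMIs. Doublets were not removed. An alternative left out the deepest 5% of cells of each set. That cut ran over all classes, and enteroendocrine cells were shallower than other cells, so it cannot address doublets among them. Named genes were all members, the gate genes, per list at most 3 genes past 2-fold in both sets with the largest smaller ratio, and the 3 genes most like each member. Some genes these rules name are not reported here. Alternatives changed cell filters, gates, pseudocount, UMI minimum, averaging, the highest cells and shared barcodes. Figures were drawn with matplotlib 3.10.9.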

Additional observations from a re-analysis of the deposited data

How the results depend on the processing

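Under 16 alternative settings, 14 planned and 2 added after seeing the data (endocrine cells under 5000 UMIs left out, and gate genes left out of the totals), 896 ratios of the members were recomputed. Of these 813 moved by less than the counting interval allows, 81 moved by more and 2 reversed. Both reversals are Gfra3 in the Neurog3 class against the mature classes with the Neurog3 gate applied last, -0.44 in set 1 and -0.91 in set 2. In that setting Scn3a (-2.12 and -3.45) and Rab3c (-4.73 and -3.50) passed as lower, while Gfra3, Ffar4 in set 1 and Gpr119 in set 2 no longer passed, so 5 members passed as before but not the same ones. Most of the moved or reversed values came from a pseudocount of 10 CPM (25), the Neurog3 gate applied last (17), a pseudocount of 0.1 CPM (11) and equal weights for cells (10). The number of members past 2-fold between enteroendocrine and other cells was between 6 and 8 for set 1 and 8 or 9 for set 2. Between the Tph1 and peptide-hormone classes it was 6 or 7, and for the Neurog3 class 4 or 5. Between sets in enteroendocrine cells it was 0, but 1 with cells weighted equally. Without the 3 highest cells, the log2 ratio of Trpa1 for the Neurog3 class was -4.87 and -4.25. In set 2 that of Ffar1 was -5.18 and that of Rab3c -0.21, and all of these moved beyond the counting interval. Within it, Ffar1 in set 1 went from -4.64 to -5.33. In set 2 Ffar4 went from -1.72 to -2.47 and Gpr119 from -2.66 to -3.79, also within it. Between the Tph1 and peptide-hormone classes this setting took Trpa1 in set 1 (6.10 to 8.22) beyond its counting interval. Scn3a in set 1 (5.22 to 5.93), and in set 2 Gpr119 (-3.30 to -4.56) and Ffar1 (-6.30 to -6.91), also went away from 0, but within theirs. No paired analysis was possible because the deposited samples hold identical matrices and were treated as 1 sample. With no minimum of UMIs, the member added in set 2 was Casr, on 6 UMIs. With a pseudocount of 10 CPM, Ffar4 (0.64) and Gpr119 (0.96) no longer passed in set 1. Depth limits Piezo2 and Casr, with 2 and 9 UMIs in kept cells.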
